A study of Homo sapiens with 8 samples.

Results

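The regions described here are stretches of the autosomes that held a wide ATAC-seq peak in all 4 control libraries of mitotic cells and in none of the 4 libraries from cells with inhibited Plk1. They were chosen by measured values: a peak counted as wide at a deposited length of 300 bp or more, wide peaks of the 8 lists that shared at least 1 bp were merged, and a merged region was kept when it held a wide peak in 4 of 4 DMSO lists and in 0 of 4 3MB-PP1 lists. Of 307524 merged wide regions on chromosomes 1 to 22, 939 met this rule, which is 0.305% of them. The same rule with the groups exchanged kept 315 regions, 0.102% of the same 307524. Because peak length in both groups selected them, the counts and lengths that follow are a description of these 8 lists and carry no test. Below, the 939 are called DMSO-only wide regions and the 315 are called 3MB-PP1-only wide regions.

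ATAC-seq uses the Tn5 transposase, which inserts sequencing adapters where DNA is not shielded by nucleosomes or other proteins, so a peak marks DNA that was open to the enzyme. During mitosis chromosomes condense and most transcription stops, but many promoters and some enhancers stay accessible and can be found as peaks. Plk1, Polo-like kinase 1, is a mitotic serine/threonine kinase that acts in mitotic entry, spindle assembly and cytokinesis.

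All 8 libraries came from hTERT RPE-1 cells, a telomerase-immortalised human line from retinal pigment epithelium, in which both copies of PLK1 are deleted and the kinase is supplied as EGFP-Plk1as, a fluorescent analog-sensitive form. Every culture first spent 16 h in 5 µM STLC, an inhibitor of the spindle motor Eg5 that arrests cells in prometaphase, and mitotic cells were shaken off. For 2 h, still in STLC, 4 cultures then received 0.5% DMSO, the vehicle, and 4 received 10 µM 3MB-PP1, which blocks the analog-sensitive kinase. The mitotic index was above 95% and 50000 cells entered each reaction. The deletion, the transgene and the arrest are therefore shared by both groups, and no library came from cells with the endogenous kinase or outside mitosis. The design text calls the 4 libraries of a group biological replicates and does not say whether the line is 1 clone. The assay was done in bulk, so a shorter open stretch in every cell and an open stretch in fewer cells cannot be told apart.

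The deposited lists held 149172 to 197782 autosomal peaks in DMSO and 169667 to 250548 in 3MB-PP1. Wide peaks numbered 93424 to 123422 in DMSO and 90908 to 115760 in 3MB-PP1, so the groups overlapped in this number. Their share of a list did not overlap: 57.8% to 62.9% in DMSO and 45.3% to 53.6% in 3MB-PP1. The smallest deposited length was 114 to 135 bp in DMSO and 90 to 109 bp in 3MB-PP1. With only the 90908 widest peaks of each list used in place of the length limit, there were 739 DMSO-only and 396 3MB-PP1-only wide regions. How much this difference in peak length over the whole lists contributes to the DMSO-only wide regions was not tested. Read depth is unknown, since the lists give no read totals. Wide peaks lay at an end of KRT8, KRT18, VIM, FN1 and CAV1, genes of cultured epithelial and mesenchymal cells, in 8 of 8 lists. MITF, OTX2 and PMEL of the pigment lineage also had one in all 8, while RPE65 and BEST1, genes of mature pigment epithelium, had none and RLBP1 had one in 1 list. Among 7 markers of blood, nerve, heart and liver, PTPRC, SYP and ALB had none, RBFOX3 had one in 2 lists, CD79A and MYH6 in 3, and CD3E in 6.

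Of the DMSO-only wide regions, 35 overlapped a RefSeq promoter window, which runs from 250 bases before to 50 bases after an annotated start. They touched 39 such windows of 37 genes. A window counted if it shared at least 1 bp with the merged region, so it need not lie in peaks of all 4 DMSO lists. For example, the VIT, GPM6A, LPP and AUTS2 windows had 0 bases inside the wide peaks of all 4 DMSO lists, and the RASD1 window had 300. The windows of the 3 among these 35 regions that ranked highest by peak strength in DMSO are shown to give an impression of the DNA in question, 5′ to 3′ on the strand of the gene, from RefSeq on GRCh38.p14. Capitals mark every match to TGANTCA, the recognition sequence type of AP-1, a dimeric factor of the Fos and Jun families. The MBNL2 window is chr13:97141584-97141883 on the plus strand. The LOC105378811 window is chr1:79322520-79322819 and the LINC02542 window chr6:81938372-81938671, both on the minus strand.
MBNL2: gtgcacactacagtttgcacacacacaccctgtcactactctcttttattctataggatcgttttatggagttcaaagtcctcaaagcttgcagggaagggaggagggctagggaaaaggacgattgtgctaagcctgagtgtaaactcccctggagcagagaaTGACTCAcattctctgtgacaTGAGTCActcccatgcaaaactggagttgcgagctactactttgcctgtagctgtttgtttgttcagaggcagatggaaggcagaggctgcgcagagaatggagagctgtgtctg
LOC105378811: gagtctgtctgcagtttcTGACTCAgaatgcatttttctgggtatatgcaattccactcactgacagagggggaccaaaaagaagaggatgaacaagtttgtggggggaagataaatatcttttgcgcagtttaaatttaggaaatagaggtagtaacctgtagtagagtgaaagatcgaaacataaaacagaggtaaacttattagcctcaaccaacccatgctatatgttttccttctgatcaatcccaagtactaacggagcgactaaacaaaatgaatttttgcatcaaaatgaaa
LINC02542: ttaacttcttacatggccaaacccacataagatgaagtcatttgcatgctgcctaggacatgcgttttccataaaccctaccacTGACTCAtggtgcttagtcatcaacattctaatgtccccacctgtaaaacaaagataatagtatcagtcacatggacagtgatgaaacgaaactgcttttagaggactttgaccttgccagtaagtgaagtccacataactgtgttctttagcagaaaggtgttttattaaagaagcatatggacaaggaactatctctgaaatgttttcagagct

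MBNL2 encodes a muscleblind-family regulator of alternative splicing, and the other 2 are long non-coding RNAs. All 300 bases of the MBNL2 window lay inside the wide peak of each DMSO list, and a shorter 3MB-PP1 peak lay in the window in 4 of 4 lists. In the LINC02542 window 96 bases were common to the 4 DMSO lists and 3 of the 3MB-PP1 lists had a shorter peak there. The LOC105378811 window overlapped its region but shared 0 bases with the part common to the 4 DMSO lists and held a shorter peak in 0 of the 3MB-PP1 lists. The MBNL2 window had 2 matches to TGANTCA and the others had 1 each.

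The promoter windows of the DMSO-only wide regions were poor in CpG. Their median was 4 CpG and 48.0% GC per window. The median over all 33725 windows was 14 CpG and 58.7% GC, and over the 14406 windows touched by a region wide in 8 of 8 lists 27 CpG and 66.3% GC. Windows touched by a region wide in 1 DMSO list and no other list, with a median of 5 CpG and 53.0% GC, were closer to those of the DMSO-only wide regions. The 1025 windows touched by a region wide in 4 of 4 DMSO and 1 to 3 3MB-PP1 lists had medians of 13 CpG and 59.3% GC. The 17 windows of the 3MB-PP1-only wide regions had medians of 25 CpG and 65.3% GC, so in CpG they differed from the DMSO-only windows. The GC box (GGGCGG on either strand), where Sp-family factors bind, was found in 23.1% of the 39 windows, 45.0% of all and 71.5% of those wide in 8 of 8 lists. TATAAA on either strand was found in 15.4% against 11.6% of all, and CCAAT on either strand in 30.8% against 34.4%. TGANTCA, which reads the same on both strands and was searched for after the sequences above had been seen, occurred in 12 of the 39 windows (30.8%), 2 of them overlapping windows of NEDD4. It occurred in 7.67% of all windows, in 10.6% of the 728 windows touched by a region wide in 1 DMSO list only, in 11.2% of all windows with under 20 CpG, and in 12 of the 34 DMSO-only windows with under 20 CpG (35.3%). The windows printed above, which were seen before the search, are counted in both the 12 of 39 and the 12 of 34. TGANTCA occurred in 9.37% of the 1025 windows touched by a region wide in 4 of 4 DMSO and 1 to 3 3MB-PP1 lists. Windows touched by the 3MB-PP1-only wide regions had it in 5 of 17 (29.4%), so a high share was seen for both directions of the rule. A match is a stretch of letters and not a measured binding site.

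The DMSO-only wide regions were 390 to 3701 bp long, with a median of 1115 bp, and together covered 1134.83 kb. All wide regions had a median of 595 bp, regions wide in 8 of 8 lists one of 1790 bp, and the 3MB-PP1-only wide regions one of 929 bp. Within the DMSO-only wide regions the median length of a wide peak was 626, 573, 668 and 490 bp in DMSO replicates 1 to 4. The narrowest of the 4 DMSO wide peaks had a median of 392 bp, was 300 to 319 bp in 118 regions and 500 bp or more in 196. The regions thus ran from peaks just past the length limit to peaks well past it.

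The DMSO peaks in these regions were of middling strength. Ranked by deposited -log10 p within each list, so that 100 is the strongest peak, the median wide peak stood at percentile 58.4, 58.6, 66.3 and 54.0 in DMSO replicates 1 to 4. Over the 4 lists together the median was 59.5, close to the 58.4 of all wide DMSO peaks and far below the 92.7 of DMSO peaks in regions wide in 8 of 8 lists. The deposited fold enrichment over background had a median of 2.63, against 2.62 for all wide DMSO peaks. A -log10 q of 5 or more was reached by 2.17% of their wide DMSO peaks, by 12.6% of all wide DMSO peaks and by 52.1% of those in regions wide in 8 of 8 lists. In 59 of the 939 regions all 4 DMSO lists had a -log10 q of 2 or more, and in 2 regions of 5 or more. These scores are the authors' own and are comparable only within a list.

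Most DMSO-only wide regions were not empty after 3MB-PP1. A 3MB-PP1 peak under 300 bp lay in 829 of the 939 (88.3%, exact Clopper-Pearson 95% interval 86.1% to 90.3%, covering counting error only). The same share was not computed for wide regions at large, so 88.3% is not read as particular to these regions. Such a peak was found in all 4 3MB-PP1 lists in 76 regions, in 3 lists in 211, in 2 lists in 297 and in 1 list in 245, and 110 regions (11.7%) had no 3MB-PP1 peak of any length. By library, 474 regions (50.5%) held a shorter peak in 3MB-PP1 replicate 1, 439 (46.8%) in replicate 2, 531 (56.5%) in replicate 3 and 332 (35.4%) in replicate 4. The 4 libraries thus ranged widely, with the shortest list of that group, replicate 4, giving the fewest.

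With the groups exchanged the share was lower. A DMSO peak under 300 bp lay in 220 of those 315 regions (69.8%, interval 64.4% to 74.9%). By library the share was 12.4%, 24.1%, 30.8% and 52.4% in DMSO replicates 1 to 4, a wider range than among the 3MB-PP1 lists above. The lists of the 2 groups differ in how many short peaks they hold, so these percentages are not on one footing. The 2 intervals cover counting error only and take regions as independent. They are not a test between the 2 sets.

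The shorter 3MB-PP1 peaks were small parts of the regions. There were 1942 of them, with a median of 192 bp, against 173 bp for all 3MB-PP1 peaks under 300 bp. Their median strength percentile was 59.8, 54.6, 53.4 and 45.6 in 3MB-PP1 replicates 1 to 4, so they were middling peaks of their lists, as the wide DMSO peaks were of theirs. On average they covered 9.45%, 9.11%, 11.1% and 6.42% of a region in replicates 1 to 4, whereas DMSO peaks covered 64.2%, 58.6%, 67.8% and 52.7%. A region held more than 1 shorter peak in 46, 34, 70 and 11 cases in 3MB-PP1 replicates 1 to 4, so most regions with a shorter peak had 1 per list.

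They fell in the part shared by the DMSO peaks more than its size over all 939 regions would give. In 769 regions (81.9%) some bases were shared by the wide peaks of all 4 DMSO lists, with a median of 281 bp. This common part made up 19.8% of the bases of the 939 regions but held 45.1% of the bases of the shorter 3MB-PP1 peaks. The 19.8% takes in the 110 regions with no 3MB-PP1 peak, and no other set of short peaks was measured beside it. A shorter 3MB-PP1 peak touched the common part in 579 of the 769 regions (75.3%). The centre of a shorter peak lay a median of 231.5 bp from the middle of its region. A wide 3MB-PP1 peak lay within 1 kb of the edge of 198 regions (21.1%) and within 5 kb of 626 (66.7%). Neither share was computed for wide regions at large, so this nearness is not read as particular to the DMSO-only wide regions.

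**Figure D1:**
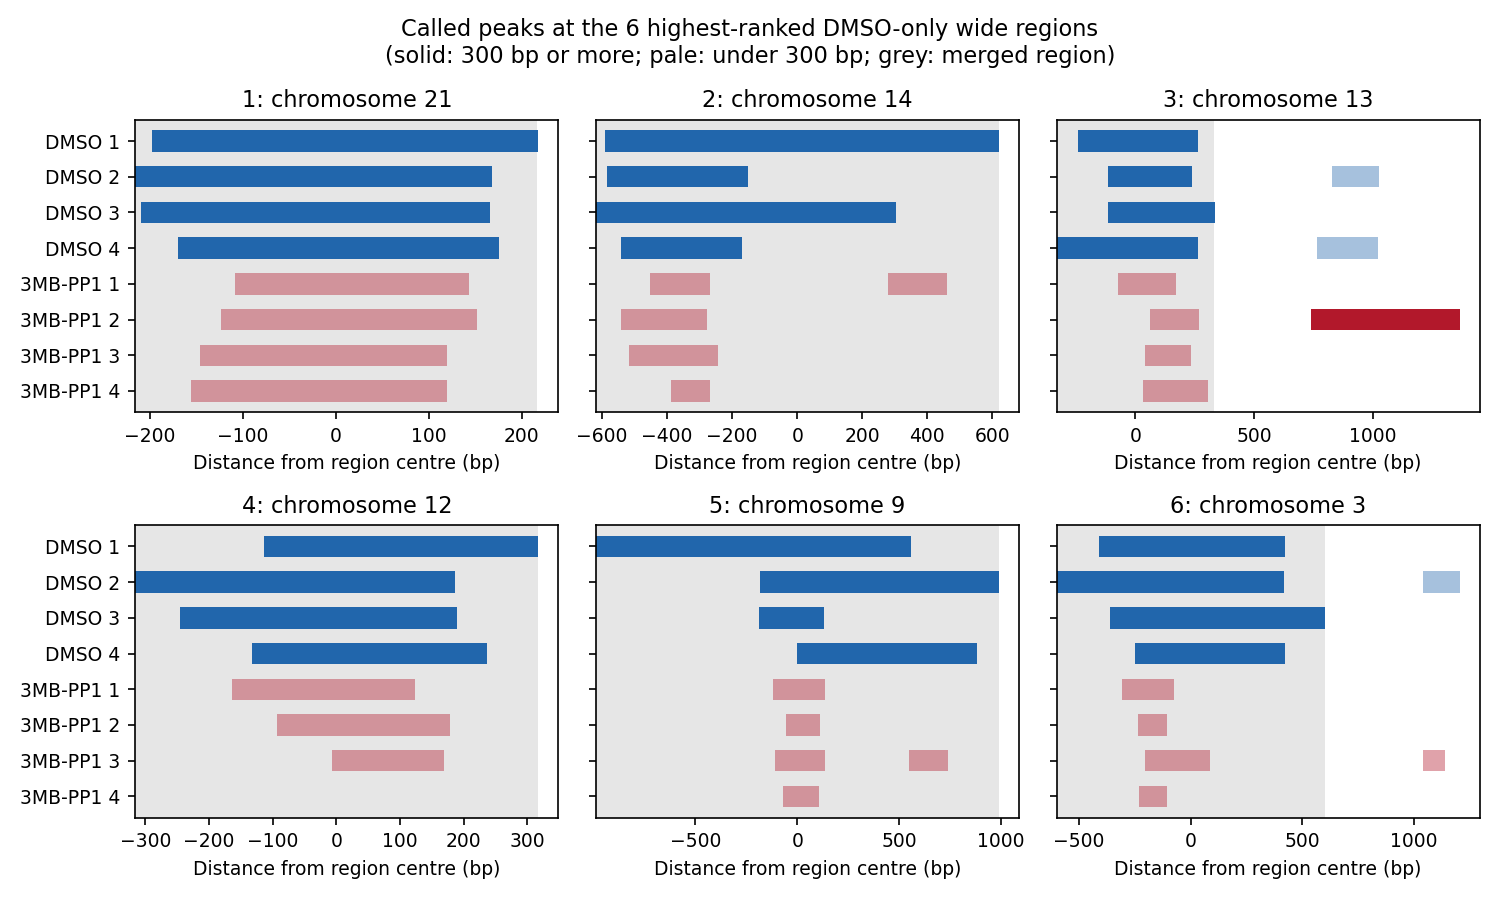
Called peaks in each of the 8 libraries (rows) at the 6 DMSO-only wide regions with the highest mean DMSO strength percentile, by distance from the region's centre in bp. Solid bars are peaks of 300 bp or more, pale bars are shorter ones, and grey marks the merged region: the DMSO bars in the grey are all solid and the 3MB-PP1 bars there are all pale.

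The length limit of 300 bp separates neighbours that are much alike. Among regions wide in 4 of 4 DMSO lists, the widest 3MB-PP1 peak was 280 to 299 bp in 143, which are in the set, and 300 to 319 bp in 201, which are not. The first had a median region length of 1103 bp and a median narrowest DMSO peak of 384 bp, and the second 1179 bp and 400 bp. Over all DMSO-only wide regions with a 3MB-PP1 peak, the widest one had a median of 235 bp. Regions wide in 4 of 4 DMSO lists and in 1, 2 or 3 of the 3MB-PP1 lists numbered 2309, 3947 and 6133, and those wide in all 8 numbered 22333. These counts form a graded series with no gap at the limit.

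**Figure D2:**
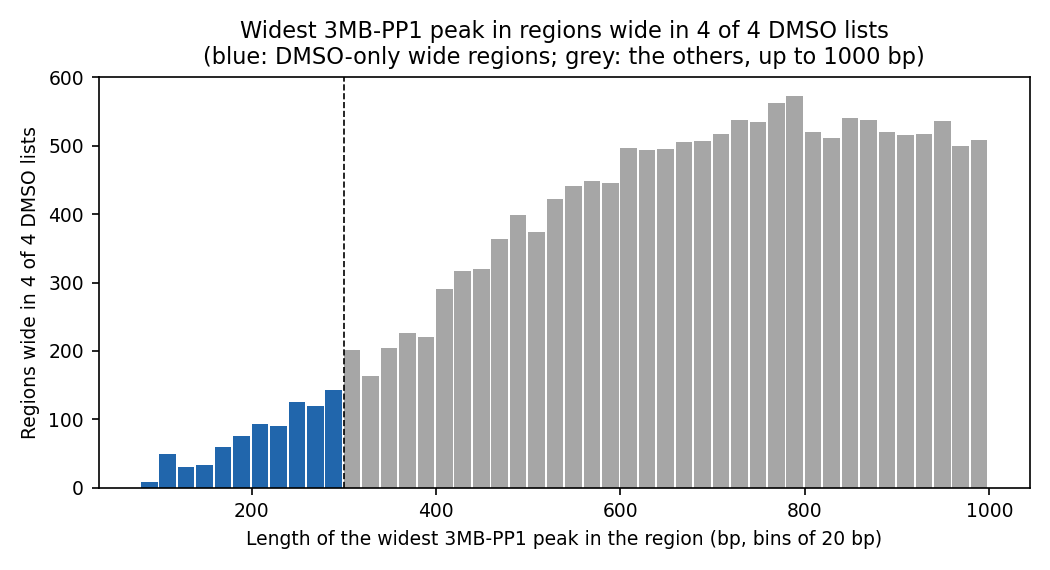
Number of regions wide in 4 of 4 DMSO lists (vertical axis) by the length of the widest 3MB-PP1 peak in the region (horizontal axis, bp, bins of 20 bp), with the DMSO-only wide regions in blue and the others in grey. The counts pass from 143 just under the 300 bp limit to 201 just above it with no gap.

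Libraries that had no part in choosing the regions gave the same measure again. For each replicate number the rule was applied to the other 6 libraries, and the left-out DMSO and 3MB-PP1 libraries were read in the regions so chosen. Leaving out number 1 gave 2822 regions, of which 56.7% had a wide peak in the left-out DMSO library and 34.8% in the left-out 3MB-PP1 library. For number 2 the shares were 53.6% and 32.2% of 2813 regions, for number 3 they were 72.0% and 39.2% of 2272, and for number 4 they were 38.3% and 20.6% of 3460. The DMSO library was higher in 4 of 4 pairs, by 1.63 to 1.86 times, and the 4 DMSO and 4 3MB-PP1 values overlapped only through DMSO replicate 4. Over the whole lists, wide peaks numbered 93424, 96726, 123422 and 114222 in DMSO and 95830, 100203, 115760 and 90908 in 3MB-PP1 replicates 1 to 4. DMSO thus had fewer in numbers 1 and 2 and more in numbers 3 and 4. The share of all wide regions held by each left-out library was not computed, so these shares have no base rate beside them. A peak of any length was found in 61.2% to 85.2% of the regions in the left-out DMSO library and in 41.4% to 70.3% in the left-out 3MB-PP1 library. The 4 choices share libraries and were not tested.

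With the groups exchanged the left-out libraries differed less evenly. Regions chosen as 3MB-PP1-only on 6 libraries had a wide peak in the left-out 3MB-PP1 library in 30.6%, 47.2%, 48.3% and 48.9% for numbers 1 to 4, and in the left-out DMSO library in 14.6%, 26.8%, 36.7% and 55.8%. The 3MB-PP1 library was higher in numbers 1 to 3 and the DMSO library in number 4.

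**Figure D3:**
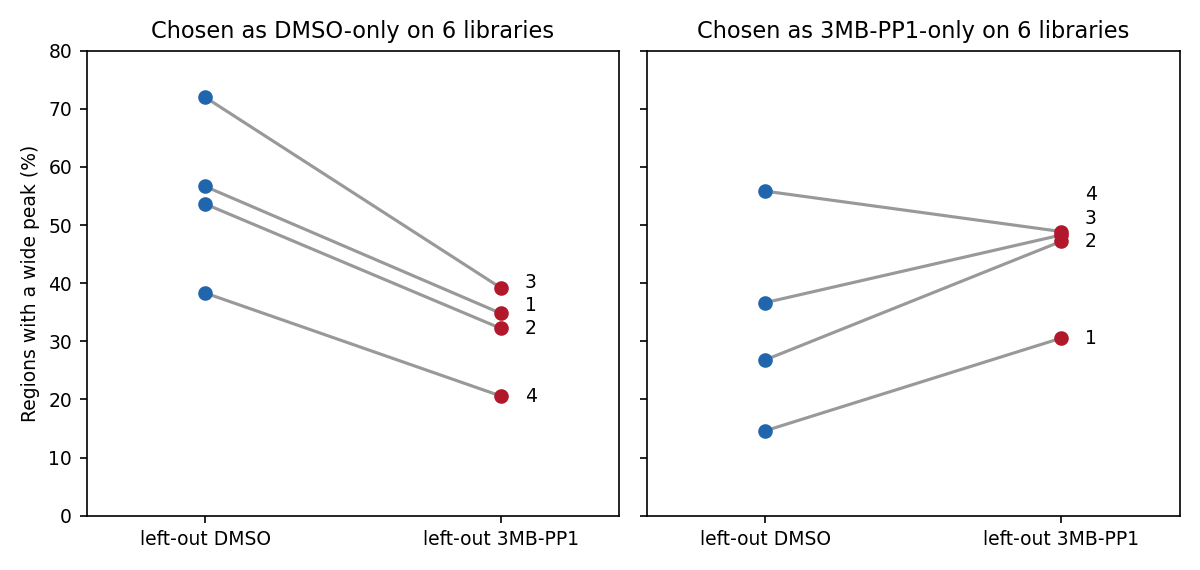
Share of regions with a wide peak (%, vertical axis) in the left-out DMSO (blue) and 3MB-PP1 (red) library, for regions chosen on the other 6 libraries as DMSO-only (left) or 3MB-PP1-only (right), with each line joining the libraries of 1 replicate number. All 4 lines fall on the left, from 38.3% to 72.0% in DMSO down to 20.6% to 39.2% in 3MB-PP1, and 3 of 4 rise on the right.

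The highest-ranked region was chr21:8228530-8228963, on the short arm of chromosome 21, where near-identical copies exist and the placing of reads is uncertain. Its peaks were 416, 384, 376 and 346 bp in DMSO replicates 1 to 4 and 251, 276, 266 and 276 bp in 3MB-PP1 replicates 1 to 4. Here and for the named regions below, each length is that of the widest peak of a list in the region. The lengths did not overlap, as the rule requires, yet the 3MB-PP1 peaks stood at percentiles 99.2 to 99.4 of their lists, beside 96.2 to 99.3 for the DMSO peaks. The 3MB-PP1 peaks here were shorter but not lower in rank.

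The region at MBNL2, chr13:97141319-97141982, holds the first of the promoter windows printed above. Its peaks were 507, 353, 446 and 596 bp in DMSO and 242, 205, 197 and 270 bp in 3MB-PP1. By the rule all 3MB-PP1 peaks were shorter than the DMSO peaks, while their percentiles of 95.4 to 96.8 overlapped the DMSO range of 90.3 to 95.8. Deposited -log10 q was 6.19, 8.81, 12.5 and 4.86 in DMSO and 8.89, 5.52, 4.74 and 4.40 in 3MB-PP1, and these overlapped. Outside the region, 738 to 1362 bp from its centre, 3MB-PP1 replicate 2 had a peak of 625 bp. DMSO replicates 2 and 4 had peaks of 199 and 257 bp within that stretch, so the lengths there went the other way.

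Inside PRUNE2, chr9:76817478-76819454 had peaks of 1548, 1170, 316 and 886 bp in DMSO and of 256, 167, 244 and 175 bp in 3MB-PP1. A second peak, of 191 bp, lay in the region in 3MB-PP1 replicate 3. There the DMSO libraries differed among themselves by more than the narrowest DMSO peak differed from the widest 3MB-PP1 peak.

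Inside CCDC91, which encodes an adaptor of Golgi traffic, the region chr12:28253002-28253634 had peaks of 430, 502, 436 and 368 bp in DMSO, of 288, 273 and 176 bp in 3MB-PP1 replicates 1 to 3, and none in replicate 4. Some 85 kb from EGFR, the epidermal growth factor receptor gene, chr7:54932614-54933690 had 881, 509, 508 and 429 bp in DMSO and 265, 236, 298 and 131 bp in 3MB-PP1. The region chr3:169026610-169027813, near MECOM, a zinc-finger transcription factor gene, had 834, 1020, 963 and 674 bp in DMSO and 235, 128, 292 and 127 bp in 3MB-PP1. Near MECOM the DMSO peaks kept a narrow range of percentiles, 88.8 to 93.3, while the 3MB-PP1 peaks ran from 11.2 to 91.7.

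A further 3 of the first 10 had like lengths. The region chr4:105087767-105088968 had peaks of 785, 832, 1051 and 643 bp in DMSO, of 176, 239 and 178 bp in 3MB-PP1 replicates 1 to 3, and none in replicate 4. The region chr6:121951704-121952917 had 839, 433, 994 and 787 bp in DMSO and 271, 201, 219 and 215 bp in 3MB-PP1. Inside GOLIM4, a Golgi membrane protein gene, chr3:168024351-168025099 had 586, 457, 480 and 389 bp in DMSO and 223, 228 and 138 bp in 3MB-PP1 replicates 1, 3 and 4. The regions of the first 10 that are described here each kept a shorter peak in at least 3 of the 3MB-PP1 lists.

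Ranked instead by the narrowest DMSO peak, other regions led, and their peaks were weaker. The first, chr1:225766153-225768561, lay 9.3 kb from SRP9, a signal recognition particle gene, and had peaks of 1402, 1503, 1345 and 1332 bp in DMSO against 185, 136 and 209 bp in 3MB-PP1 replicates 1 to 3 and none in replicate 4. Its DMSO percentiles were only 26.7 to 59.3. The region chr2:109125074-109126885 had 1675, 1489, 1239 and 1487 bp in DMSO and 154, 209 and 277 bp in 3MB-PP1 replicates 1 to 3. At chr6:109961110-109962626, near GPR6, an orphan receptor gene, the peaks were 1248, 1343, 1159 and 1361 bp in DMSO, 289 and 250 bp in 3MB-PP1 replicates 2 and 3, and absent from the others.

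Inside SRGAP3, which encodes a GTPase-activating protein of neurons, chr3:9118562-9119951 had 1290, 993, 1104 and 974 bp in DMSO and 209 and 122 bp in 3MB-PP1 replicates 3 and 4. Inside DOK6, an adaptor of receptor tyrosine kinases, chr18:69657119-69658338 had 1016, 955, 1153 and 1060 bp in DMSO and 253, 189, 266 and 255 bp in 3MB-PP1. In each of these 5 regions the narrowest DMSO peak was more than 3 times as long as the widest 3MB-PP1 peak.

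Protein-coding gene ends were scarce among the DMSO-only wide regions. Within 1 kb of such an end lay 44 of them (4.69%), inside a protein-coding gene 397 (42.3%), at or in another gene 154 (16.4%) and between genes 344 (36.6%). All wide regions were divided almost alike, at 6.67%, 41.6%, 16.2% and 35.5%. Regions wide in 4 of 4 DMSO lists, whatever the 3MB-PP1 lists held, were divided otherwise, at 29.2%, 30.8%, 15.0% and 25.0%. Regions wide in 8 of 8 lists had 42.1% at gene ends and 19.03% between genes, and the 3MB-PP1-only wide regions 6.03% and 37.1%. The median distance to the nearest protein-coding gene end was 38.5 kb, against 37.1 kb for all wide regions. It was 16.4 kb for regions wide in 4 of 4 DMSO lists and 6.61 kb for those wide in 8 of 8 lists. The gene table gives no strand, so a gene end can be a start or a finish.

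A shorter 3MB-PP1 peak was found in 43 of the 44 regions at gene ends (97.7%), in 341 of 397 inside protein-coding genes (85.9%), in 134 of 154 at other genes (87.0%) and in 311 of 344 between genes (90.4%). The protein-coding genes that held a DMSO-only wide region had a median length of 186 kb, against 168 kb for those holding any wide region.

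**Figure D4:**
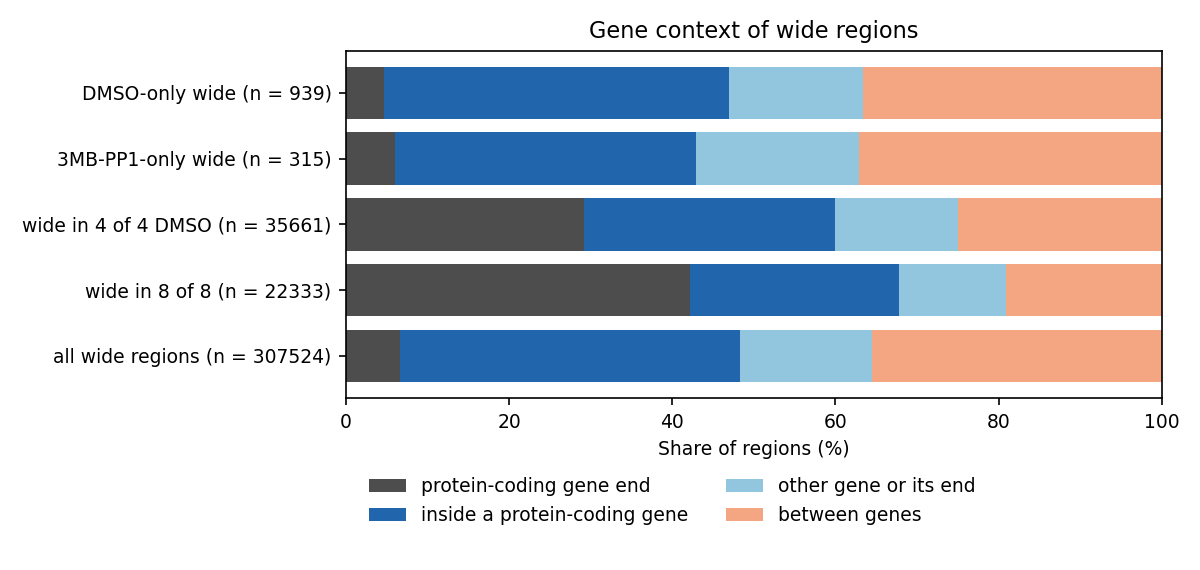
Share of regions (%, horizontal axis) at a protein-coding gene end, inside a protein-coding gene, at another gene or between genes, for 5 sets of wide regions (rows, with their number). The DMSO-only, 3MB-PP1-only and all-region bars are alike, with 4.69% to 6.67% at gene ends, while regions wide in 8 of 8 lists have 42.1% there.

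In all, 46 of 19126 protein-coding genes (0.241%) had a DMSO-only wide region at an end. After MBNL2 the next by mean DMSO percentile was ARL14EPL, at 83.2 ± 14.0 (SD, n = 4), where the peaks were 913, 803, 833 and 680 bp in DMSO and 242, 148 and 229 bp in 3MB-PP1 replicates 1 to 3. At CLK2, a kinase of splicing factors, they were 456, 464, 381 and 683 bp in DMSO and 269, 105 and 296 bp in 3MB-PP1 replicates 1 to 3. NCKAP5 had 1207, 496, 658 and 431 bp in DMSO and kept 1 shorter peak, of 281 bp, in 3MB-PP1 replicate 2. NCKAP5 kept shorter peaks in the fewest 3MB-PP1 lists of the 10 genes named.

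VIT, an extracellular matrix protein gene, had peaks of 1703, 2218, 2033 and 332 bp in DMSO and of 151, 115 and 264 bp in 3MB-PP1 replicates 1 to 3. HEBP1, a haem-binding protein gene, had 1249, 1145, 1227 and 596 bp in DMSO and 173 and 186 bp in 3MB-PP1 replicates 1 and 3. DMSO replicate 4 had the narrowest peak at both, by a wide margin. RASD1, a Ras-like GTPase gene induced by glucocorticoids, had 875, 1257, 862 and 861 bp in DMSO and 204, 166 and 295 bp in 3MB-PP1 replicates 1 to 3. At TESPA1, a gene of T-cell signalling, the peaks were 417, 579, 419 and 342 bp in DMSO and 114, 251 and 145 bp in 3MB-PP1 replicates 2 to 4. PTGER1, a prostaglandin E receptor gene, and GIPC1, a PDZ-domain adaptor gene, share 1 region, with 1470, 721, 366 and 420 bp in DMSO and 283 and 139 bp in 3MB-PP1 replicates 1 and 3. Of the 10 genes, MBNL2 alone had a shorter peak in all 4 3MB-PP1 lists.

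Few genes held several DMSO-only wide regions. Of 402 protein-coding genes overlapped, 370 held 1, 25 held 2, 5 held 3 and 2 held 4. The most, 4 each, lay in NYAP2, a gene of neuronal phosphoinositide signalling, and in LRMDA, linked to melanocyte differentiation. NYAP2 spans 306 kb and had 7 regions wide in 4 of 4 DMSO lists, and the 4 were among these, while LRMDA spans 1129 kb and had 21. Genes with 3 were COL4A4, a basement membrane collagen gene (3 of 6), KCNMB2, a potassium channel subunit gene (3 of 12), RALGPS1 (3 of 13), IQSEC1 (3 of 8) and DOK6 (3 of 11). Over all protein-coding genes 435 of 21126 regions wide in 4 of 4 DMSO lists, 2.06%, were DMSO-only. This base takes in gene ends, where 44 of 10402 were DMSO-only, and the inside of genes, where 397 of 10993 were. Since the genes with 3 or 4 were picked for their number, the higher shares in them are a description.

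Gene lists related to the cells and the treatment are given by the regions wide in 4 of 4 DMSO lists that their genes held, of which 2.06% were DMSO-only over all protein-coding genes. The 17 AP-1 and immediate early genes held 22 such regions, 0 of them DMSO-only, and 16 of these genes had a region wide in 8 of 8 lists at an end. The 23 extracellular matrix genes held 0 of 37, the 21 mitotic kinase and spindle checkpoint genes 0 of 23, and the 19 matched condensin and cohesin genes, the machinery that shapes mitotic chromosomes, 0 of 22. An end wide in 8 of 8 lists was found in 16, 21 and 18 of these genes. At a share of 2.06%, lists of this size would be near 0 in any case, so nothing about these genes is read from the zeros. Of 20 target genes of YAP and TEAD, which act in contact and growth control, NUAK2 and TGFB2 held 1 region each in the gene body, 2 of 57 (3.51%). Of 33 adhesion and guidance genes NRXN3 held 1 of 76 (1.32%), and of 18 pigment epithelium genes DCT, an enzyme of melanin synthesis, held 1 of 18 (5.56%). Each of these shares rests on 1 or 2 regions.

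Very long genes at common fragile sites, places that tend to break under replication stress, held 6 of 86 such regions (6.98%), beside 2.06% over all protein-coding genes. These 6 lay in 5 of the 19 matched genes, among them AUTS2, CTNNA3, MAGI2 and NAALADL2, and the one in AUTS2 lay at a gene end. Of the regions wide in 4 of 4 DMSO lists, 44 of 10402 at protein-coding gene ends and 397 of 10993 inside such genes were DMSO-only. The 2.06% takes in both places, and the 86 regions were not split by place. A list of 19 genes with 6 regions gives little precision, and no test was made.

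Along the chromosomes the DMSO-only wide regions were unevenly spread. Chromosomes 1, 2 and 3 held 97, 96 and 85, which is 0.450%, 0.426% and 0.456% of their wide regions, beside 0.305% over all autosomes. Together these 3 held 29.6% of the DMSO-only wide regions, 20.4% of all wide regions and 14.6% of the 3MB-PP1-only ones. At the other end chromosome 17 held 13 (0.125%), chromosome 19 held 12 (0.148%), chromosome 21 held 7 (0.161%) and chromosome 8 held 26 (0.168%). Chromosomes 17 and 19, which are rich in genes, together held 2.66% of the DMSO-only wide regions, 6.04% of all wide regions and 5.40% of the 3MB-PP1-only ones.

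The lists as a whole moved in the same direction. Chromosomes 1 to 3 held 21.4%, 20.7%, 21.4% and 20.2% of all wide peaks in DMSO replicates 1 to 4 and 19.5%, 18.9%, 19.1% and 19.2% in 3MB-PP1 replicates 1 to 4, and the groups did not overlap. Chromosomes 17 and 19 held 6.56%, 5.83%, 5.96% and 6.15% in DMSO and 7.18%, 6.37%, 6.31% and 6.44% in 3MB-PP1, where they did overlap. Within each replicate number the 3MB-PP1 value was the higher one there. The part of this in the spread of the DMSO-only wide regions was not tested.

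**Figure D5:**
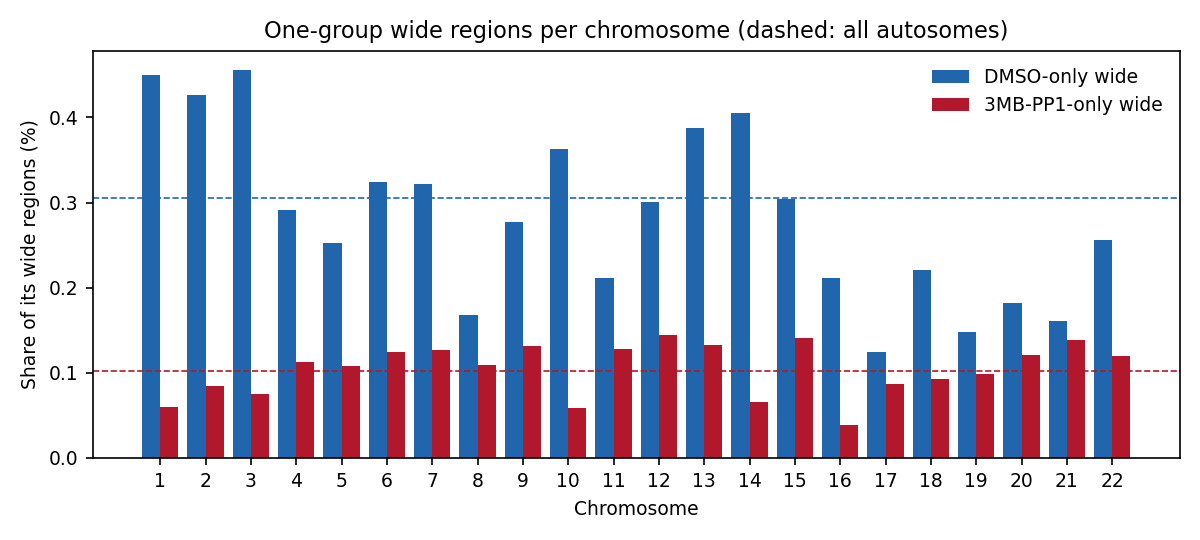
Share of each chromosome's wide regions (%, vertical axis) that were DMSO-only (blue) or 3MB-PP1-only (red), with dashed lines at 0.305% and 0.102% for all autosomes. Chromosomes 1 to 3 have the highest blue bars, at 0.426% to 0.456%, and chromosomes 17 and 19 the lowest, at 0.125% and 0.148%.

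The regions also lay near each other somewhat more than wide regions at large. Of all wide regions within 100 kb of a DMSO-only wide region, 0.532% were DMSO-only themselves, and within 1 Mb 0.438%, beside 0.305% overall. Counted among regions wide in 4 of 4 DMSO lists, the shares were 4.30% within 100 kb, 3.50% within 1 Mb and 2.63% overall. The 3MB-PP1-only wide regions, among regions wide in 4 of 4 3MB-PP1 lists, gave 2.27%, 1.33% and 1.07%. Within 100 kb this rests on 18 of 793 neighbours, beside 168 of 3909 for the DMSO-only wide regions. Nearness was thus seen for both directions of the rule, on a small count for the 3MB-PP1-only one.

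Tight clusters were rare. Another DMSO-only wide region lay within 100 kb of 147 (15.7%) and within 1 Mb of 600 (63.9%). The median gap between neighbours was 1351 kb, 8 of 917 gaps were under 10 kb, and the smallest was 1535 bp. Of the 1-Mb windows with a wide region, 2036 held none, 524 held 1, 125 held 2, 34 held 3, 12 held 4 and 3 held 5.

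The 3 fullest windows were on chromosomes 6 and 12. In chr6:131000001-132000000, with AKAP7, ENPP1 and CCN2 as the nearest protein-coding genes, 5 of 16 regions wide in 4 of 4 DMSO lists were DMSO-only. In chr12:15000001-16000000, with 2 of the 5 inside EPS8, an actin regulator gene, it was 5 of 46. In chr6:150000001-151000000, with 2 of the 5 inside PLEKHG1 and 1 inside PPP1R14C, it was 5 of 28. The windows were picked for their number, so these shares too are a description.

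The number of DMSO-only wide regions depends on the rule, and dropping a library can only loosen it. Leaving out DMSO replicates 1, 2 and 4 in turn gave 1840, 1907 and 2748 regions, and leaving out 3MB-PP1 replicates 1, 2 and 3 gave 1593, 1500 and 1647. Among peaks with a -log10 q of 2 or more there were 461 DMSO-only and 16 3MB-PP1-only wide regions, and 46.6% of the 461 held a shorter 3MB-PP1 peak, against 88.3% above. Replicates 1 and 3 alone gave 12330 and 7253, and replicates 2 and 4 alone 9133 and 5551, so the DMSO-only number was the higher one within both subsets.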

How the data were processed

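ATAC-seq peak lists of 8 libraries, 4 DMSO and 4 3MB-PP1, were analysed, grouped by their titles. One list was deposited per library, so peaks had been called on single libraries. MACS2 and the build hg38 are named in the submitters' processing notes. Aligner, read filters, Tn5 shift and calling settings are not given in the sources used here, and each could change peak length.

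The lists have no header, and their columns were read from the values. Each row of the deposited lists gives a position, a peak length in bp, a pileup (coverage signal), a -log10 p and -log10 q against background, and a fold enrichment over background, all made by the authors. Scaling of the pileup between libraries is not stated, so peak scores were ranked within a list as percentiles of -log10 p.

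Wide peaks (300 bp or more, chromosomes 1 to 22) were merged at 1 bp of overlap. Lists shared at most 0.0336% of peak positions. Gene ends and gene bodies came from RefSeq GRCh38.p14 tables. A region counted as at a gene end within 1 kb of either end. Regions and gene lists were chosen with earlier results of these data known. Named in the text were the first 10 regions by mean DMSO percentile, the 5 with the longest narrowest DMSO peak, the first 10 genes at ends, the genes with most regions (all 7 with 3 or more, since 5 genes tied), the 3 fullest windows of 1 Mb, the first 3 promoters and list genes. For list genes those with a region in the gene body are named too, after their values were seen. Of these, 1 region and 1 list gene are not reported here. Promoter motifs were searched after seeing sequences. Samples share replicate numbers, which were used to leave libraries out and not as a block, as no test was made. On simulated data 200 of 200 planted regions per direction were recovered among 20000, and 0 regions differed from bedtools 2.31.1. Python 3.11.15, pandas 2.3.3, numpy 2.4.6, scipy 1.17.1 and matplotlib 3.10.9 were used. A reference genome was not used here.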

Additional observations from a re-analysis of the deposited data

Results flagged for a closer look

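Of 23 sets of 4 library values examined for a value far from the others, 1 was marked, and chance marks about 1 in 20. In regions chosen as 3MB-PP1-only on the other 6 libraries, the left-out 3MB-PP1 replicate 1 had a wide peak in 30.6%, while replicates 2, 3 and 4 had one in 47.2%, 48.3% and 48.9%. The gap between replicate 1 and the nearest of the others as a share of the range exceeded Dixon's 95% critical value. The 4 values come from 4 different choices of regions that share libraries. DMSO replicate 1, left out of the same choice, also had the lowest value of its group, 14.6%.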

How the results depend on the processing

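The DMSO-only number exceeded the 3MB-PP1-only number under every alternative run. Of 20 alternatives each, 10 kept the DMSO-only number within 1.5 times of 939 and 7 kept the 3MB-PP1-only number within 1.5 times of 315. The DMSO-only number was 461 at a -log10 q of 2 or more, 232 at 5 or more, 12330 with odd and 9133 with even replicate numbers only, and 1320 to 2748 with 1 library left out. The limits on -log10 q were applied to the peaks of both groups before merging. Most of the 461 and 232 are therefore not among the 939, of which 59 and 2 reached these limits in all 4 DMSO lists. The 3MB-PP1-only number was 179 with peaks of 400 bp or more, 169 with 50% of the region covered, 16 at a -log10 q of 2 or more, 1 at 5 or more, 176 with equal list lengths (149172 peaks), 7253 with odd and 5551 with even numbers only, and 389 to 1087 with 1 library left out.

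The share of DMSO-only wide regions with a shorter 3MB-PP1 peak, 88.3%, was 65.6% with a length limit of 200 bp, 80.4% with 250 bp and 94.3% with 400 bp. It was 82.1% with 50% of the region covered, 46.6% at a -log10 q of 2 or more, 77.7% with equal list lengths, 90.7% with the 90908 widest peaks of each list, 63.9% with odd and 57.7% with even numbers only, 79.9% with shorter peaks of at least 135 bp, and 79.9% to 87.3% with 1 library left out. The share between genes, 36.6%, was 30.5% with 50% of the region covered and 53.0% when only protein-coding genes counted. Fewer libraries loosen the rule and fewer peaks are left at a higher -log10 q; for the other settings the cause was not tested. The limit of 5 on -log10 q and the smallest length of 135 bp were chosen after seeing the data. No paired analysis was possible because the results come from no test; libraries of 1 replicate number were only set side by side as values. Read depth, which limits peak length and number, is unknown.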

Other observations

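Chromosome X was outside the rule. Merged the same way it held 2372 wide regions, of which 3 were wide in 4 of 4 DMSO and 0 of 4 3MB-PP1 lists and 2 the reverse. A DMSO-only wide region also held a DMSO peak under 300 bp in 103 of 939 cases.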
